A study of Saccharomyces cerevisiae with 2 samples.

Results

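The genes described here encode the proteins of the large, or 60S, subunit of the cytosolic yeast ribosome. They were chosen by name from the array's annotation: every gene named RPL with a number and an optional A or B, together with RPP0, RPP1A, RPP1B, RPP2A and RPP2B of the ribosomal stalk. This gave 81 genes among 5655 nuclear gene names on the array. Of the 81, 70 form 35 pairs of A and B paralogues and 11 are single-copy. The total of names, and the promoter totals below, hold some fragments of hyphenated names that were split in divergent promoters. All 81 were found in the R64 gene table. A gene's coding value came from probes annotated as inside the gene. Introns were not separated from exons, so a coding value may include intron probes. The promoter value came from probes in a tandem or a divergent promoter, where a divergent promoter counted for both of its genes.

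Ribosomal proteins are needed in matched amounts, and their genes rank among the most heavily transcribed in growing yeast. Most of their promoters bind Rap1 with Fhl1 and Ifh1, and many also bind the high-mobility-group protein Hmo1. Sfp1, Crf1 and the repressor Stb3 tie their output to nutrients. Yeast kept many of these genes as pairs after a whole-genome duplication, so that a protein is often made from A and B copies with closely similar coding sequences and different promoters. Histone H3 is a core component of the nucleosome, and the precipitation of tagged H3 reads how much of it lies on each stretch of DNA.

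There was 1 group with 2 arrays. Both used Saccharomyces cerevisiae strain MDY510, in which H3 carries a Myc tag, held in G1 with the mating pheromone alpha factor and without the induction by galactose. On each 2-colour array the DNA precipitated with a monoclonal anti-Myc antibody is labelled as the Cy5 channel and the sonicated whole-cell extract (WCE) as the Cy3 channel. There was no untagged strain, no mock precipitation and no dye exchange, so nothing in the design separates a dye effect from the precipitation. The labels do not say that the replicates are separate cultures, so a p-value here covers only what differed between these 2 hybridisations, possibly technical variation alone, and the number of arrays limits the precision.

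Values are log2 ratios of the processed Cy5 over Cy3 signals, centred on each array's median, so that 0 is the level of the middle probe and a positive value means brighter in the channel labelled IP. The direction needs care. Mitochondrial DNA has no histones, yet its 230 probes lay above the nuclear ones by 4.77 in replicate 1 and 4.91 in replicate 2. The channels are therefore called by their labels throughout; if they had been exchanged, each sign below would turn. Both arrays had strong signal, with channel medians from 34318 to 36699 against background medians of 64 to 87.5, and between 4.74 and 8.49% of the probes were saturated in a channel. Over all 40890 probes kept, the arrays correlated with r = 0.992, a description across probes that share the same 2 hybridisations.

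The coding regions of large-subunit genes carried a higher Cy5 over Cy3 ratio than those of most genes. Of 62 members with at least 2 coding probes, 57 were above the array median, 3 were below it and 2 did not pass, by limma with an adjusted p under 0.05 over all 4996 coding regions. By the same test 34.9% of all coding regions were higher and 49.1% were lower. The median over the members was 0.29 in replicate 1 and 0.33 in replicate 2, against -0.05 and -0.03 for all other genes. The difference between these medians was 0.35 ± 0.01 (SD over 2 arrays), or 1.27-fold. Of the 62 members, 35 (56.5%) lay among the highest 10% of all coding regions. The limma fit drew the spread of every coding region to an SD of 0.03, so small differences from 0 pass. With normexp background correction of the raw signals in place of the processed signals, no member passed. Over all 4996 coding regions, that correction left 8 higher and 2 lower.

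Large-subunit promoters stood still higher. Of the 80 members with a promoter probe, 74 were higher than the array median, 1 was lower and 5 did not pass (limma, adjusted over 5176 promoters). Over all promoters, 70.8% were higher and 16.2% lower. The member median was 0.70 in replicate 1 and 0.78 in replicate 2, against 0.21 and 0.25 for all other genes, a difference of 0.51 ± 0.02 (SD, 2 arrays) or 1.42-fold. Among the highest 10% of all promoters were 37 of the 80 (46.3%). RPL20A had no promoter probe, and the 80 values come from 79 distinct promoters, since RPL24A and RPL30 share one. Under normexp background correction no promoter on the array passed, of members or of other genes, although 74 of the 80 members kept their sign.

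**Figure D1:**
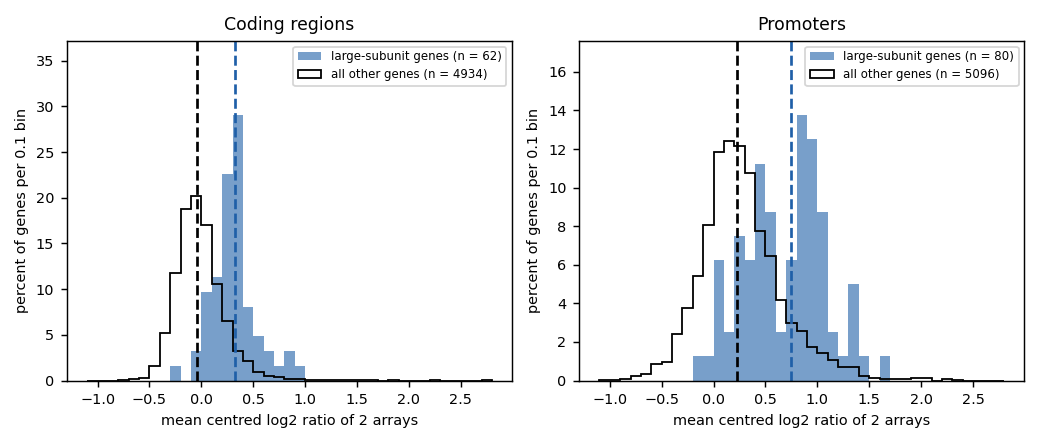
Percent of genes per 0.1 bin of the mean centred log2 ratio (Cy5 over Cy3, 2 arrays) for large-subunit genes (blue bars) and all other genes (black outline), with dashed lines at the medians. Coding regions are on the left (62 members) and promoters on the right (80 members), and in both the blue median lies above the black one.

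Of the remaining members, 14 had only 1 coding probe and 5 (RPL1B, RPL11A, RPL29, RPL41A and RPL41B) had none on the array. The 14 single-probe genes were left out of the counts above. They ran from -0.18 in RPL26B to 1.11 in RPL24A with a median of 0.66, and 13 were above 0. The 455 other genes with 1 coding probe had a median of 0.21. The values of the single-probe members went with probe length. RPL4A, RPL4B, RPL26B and RPP1B, with probes of 60 bases, had means of 0.05, 0.35, -0.18 and 0.43. The shorter probes of the rest read from 0.38 in RPL8A to 1.11 in RPL24A. An effect of probe length was not tested. In a limma fit that took coding regions from 1 probe upward, 13 of these 14 were higher and RPL26B was lower, beside 37.3% higher and 45.8% lower over all 5465 coding regions in that fit. Many large-subunit genes are short, and short genes have few probes, so the values are also given by probe number. With 2 probes, 28 members had a median of 0.36 and 27 were higher, against 0.11 and 60.9% higher for 686 other genes. With 3 probes, 27 members had a median of 0.25 and 23 were higher, against 0.05 and 51.9% for 801 other genes. With 4 probes, 6 members had a median of 0.34 and all were higher, against 0.02 and 45.0% for 757 other genes. The share of other genes called higher thus exceeded 34.9% at each of these probe numbers.

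**Figure D2:**
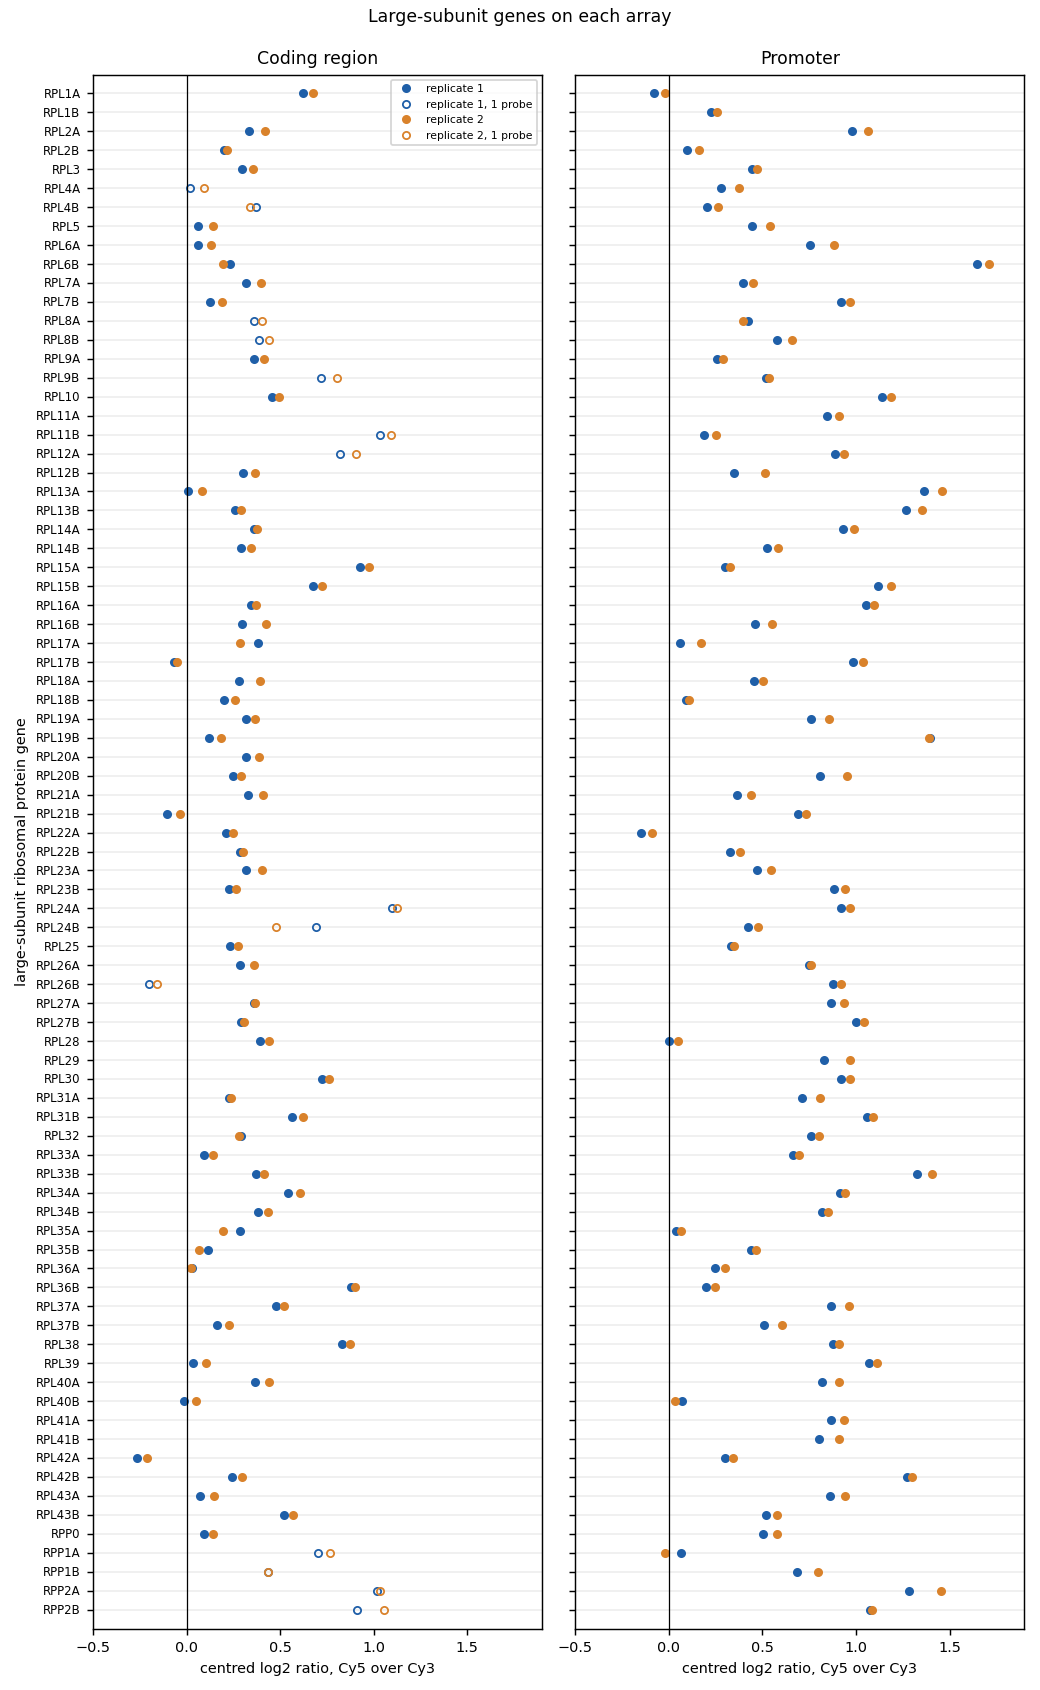
Centred log2 ratio (Cy5 over Cy3) of each of the 81 large-subunit genes on each array, for the coding region (left) and the promoter (right), with open circles where a coding value rests on 1 probe. The replicates of a gene lie close together compared with the distance between genes, most points are right of 0, and promoters spread more widely than coding regions.

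The stalk, which recruits translation factors to the large subunit, is built on Rpp0 with pairs of P1 and P2 proteins bound to it and Rpl12 at its base. RPP0 read 0.09 and 0.14 over its coding region and 0.51 and 0.58 over its promoter in replicates 1 and 2. With the arrays centred on the mode its coding region no longer passed (limma adjusted p = 0.15). The acidic P2 genes were high in both regions. RPP2A, which shares its promoter with the small-subunit gene RPS15, had promoter values of 1.28 and 1.46 and a single coding probe at 1.02 and 1.03. RPP2B had 1.07 and 1.08 in the promoter and 0.91 and 1.06 at its coding probe. The P1 genes differed from each other. RPP1A had 0.06 and -0.02 in its promoter, not different from 0 (limma adjusted p = 0.514), and 0.70 and 0.77 at its coding probe. That promoter value rests on 1 probe, which was saturated. RPP1B had 0.68 and 0.80 in its promoter and 0.43 on both arrays at its coding probe. In all, 6 of the 7 stalk promoters were higher, beside 70.8% of all promoters.

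Rpl5 and Rpl11 join the 5S rRNA in a particle that enters the subunit as a unit. RPL5 had coding values of 0.06 and 0.14, which no longer passed when arrays were centred on the mode, and promoter values of 0.44 and 0.54. RPL11A has no coding probe, and its promoter read 0.84 and 0.91. RPL11B had the higher coding reading, 1.03 and 1.09 from 1 probe, with a promoter at 0.19 and 0.25. All 3 promoters of the particle were higher by limma, as were 70.8% of all promoters, and the promoter of the A copy was above that of the B copy on both arrays.

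Around the peptidyl transferase centre, where peptide bonds form, lie Rpl2, Rpl3 and Rpl10. All 4 of their genes were higher in coding region and promoter, as were 27.2% of all genes measured in both. RPL10, whose protein joins late and is needed for release of the export adaptor Nmd3, had 0.46 and 0.49 in coding probes and 1.14 and 1.19 in the promoter. RPL3 had 0.29 and 0.36 in coding probes and 0.44 and 0.47 in the promoter. The exit tunnel proteins, which line or surround the channel for the nascent chain, are encoded by 14 members (RPL4, RPL17, RPL19, RPL25, RPL26, RPL31, RPL35 and RPL39). Of these, 10 of 11 measured coding regions and 13 of 14 promoters were higher, beside 34.9% of all coding regions and 70.8% of all promoters. RPL39, the gene of a tiny protein in the tunnel wall, was near the array median in its coding region, at 0.03 and 0.10, with a promoter at 1.07 and 1.11. RPL25, whose protein offers a docking site for factors at the tunnel exit, had 0.23 and 0.27 in coding probes and 0.33 and 0.35 in the promoter.

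Rpl24, Rpl30 and Rpl41 touch the small subunit in bridges between the subunits, and the promoters of all 5 genes were higher, with a median of 0.90, beside 70.8% higher over all promoters. RPL24A and RPL30 among them share 1 promoter value. RPL30, whose protein also binds its own transcript and blocks its splicing, read 0.72 and 0.76 in its coding region. Its promoter, shared with RPL24A, had 5 probes with a mean of 0.92 and 0.97 that ran from 0.26 to 1.99. Rpl40 is made as a fusion with ubiquitin. RPL40A had coding values of 0.36 and 0.44 and promoter values of 0.82 and 0.91. RPL40B was at the array median in both, with -0.02 and 0.05 in coding probes and 0.07 and 0.03 in the promoter, and neither passed (limma adjusted p = 0.435 and 0.118). Their divergent neighbours are themselves paralogues, MLP2 beside RPL40A and MLP1 beside RPL40B.

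Among members with at least 2 coding probes, the highest coding regions were those of RPL15A, RPL36B, RPL38, RPL30, RPL15B and RPL1A, all with 2 probes. Single probes read higher than any of these in RPL24A, RPL11B, RPP2A and RPP2B. RPL15A, RPL30 and RPL15B had only probes shorter than 60 bases, as did these single-probe genes. RPL15A (chromosome 12, probes from 202107 to 202450; the sources used here name no genome build for the array's coordinates) had 0.92 and 0.97, a 1.93-fold ratio relative to the array median. RPL36B had 0.88 and 0.90. RPL38 had 0.83 and 0.87, with its separate probes at 0.43 and 1.27. These 3 genes exceed the coding regions of more than 99% of genes. RPL15B had 0.67 and 0.72. RPL1A, whose protein forms the mobile stalk at the tRNA exit side, had 0.62 and 0.67. Both RPL15 copies, for a protein deep in the rRNA core, are among these 6.

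Few members were low in the coding region. RPL42A (chromosome 14, 331403 to 331853) had -0.26 and -0.21, 0.847-fold relative to the array median (limma adjusted p = 1.58e-28). RPL21B had -0.10 and -0.03 (adjusted p = 0.00165) and RPL17B -0.07 and -0.05 (adjusted p = 0.00638). The probes of RPL17B ran from -0.55 to 0.52, so its mean hides a wide spread within the gene. RPL36A, at 0.03 on both arrays, did not pass (limma adjusted p = 0.252). RPL13A had 0.01 and 0.08 and passed narrowly (limma adjusted p = 0.0401). The 3 lower calls turned positive, without passing, under normexp background correction. The calls of RPL17B, RPL21B and RPL13A were also lost when the arrays were centred on the mode of their ratios, and RPL13A was at -0.035 with probes of 60 bases only.

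The highest promoter was that of RPL6B (chromosome 12, 1028282 to 1028595, divergent with VMA6), at 1.65 and 1.71, a 3.20-fold ratio. RPL13A (divergent with the small-subunit gene RPS16B) had 1.36 and 1.46, although its coding region was close to the array median. RPL13B, divergent with the other paralogue RPS16A, had 1.27 and 1.35. RPL19B, whose protein helps form an intersubunit bridge, had 1.39 on both arrays. RPL33B, with 6 promoter probes from 0.90 to 1.91, had 1.33 and 1.41. With RPP2A these make up the 6 highest promoters, and all of them are divergent.

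At the low end, the promoter of RPL22A had -0.15 and -0.09, the 1 promoter called lower (limma adjusted p = 0.00027), and it too turned positive under normexp background correction. With the arrays centred on the mode it did not pass. Its paralogue RPL22B had 0.32 and 0.38, and without its 1 saturated probe it was at 0.025 and did not pass (limma adjusted p = 0.145). RPL1A had -0.08 and -0.02 from 1 promoter probe, beneath one of the highest coding regions of the set. RPL28, the gene in which cycloheximide resistance arises, had -0.00 and 0.05 over 4 probes that ran from -0.44 to 0.65. RPL35A had 0.04 and 0.06 and turned with the choice of probes, to 0.22 with the median of its probes and -0.16 with probes of 60 bases only. RPL1A, RPL28, RPL35A, RPL40B and RPP1A are the 5 promoters that did not pass. The 1 promoter probe of RPP1A was saturated, as were 2 of the 4 of RPL40B.

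Divergent and tandem promoters were both high among the members. In divergent promoters 42 members had a median of 0.90, with 40 higher, against a median of 0.28 and 76.8% higher among 2671 other genes. In tandem promoters 39 members had a median of 0.49, with 35 higher and 1 lower, against a median of 0.17 and 64.0% higher among 2527 other genes. RPL43B has probes of both kinds. A divergent promoter serves another gene as well, and for 6 members that gene is itself a ribosomal protein gene: RPL13A, RPL13B, RPL39 and RPP2A with small-subunit genes, and RPL24A with RPL30.

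Within genes, promoters generally exceeded coding regions. Of 61 members measured in both, 47 had a higher promoter, 10 a lower one and 4 did not pass (limma on the difference, over 4576 genes), beside 71.9% higher and 17.9% lower over all genes. The median difference was 0.41 in replicate 1 and 0.42 in replicate 2, against 0.25 and 0.26 over all genes. RPL6B had the largest, 1.47, and RPL13A had 1.37. The largest opposite differences were -0.70 in RPL1A, -0.67 in RPL36B and -0.63 in RPL15A. The promoter and coding values of a member showed little relation, with Pearson's r of -0.01 and Spearman's rho of 0.04 across 61 genes, a description across genes of the same 2 arrays. Of the 61, 52 were called higher in both regions, beside 27.2% of all 4576 genes measured in both. Under normexp background correction no member's difference passed, and over all 4576 genes 44 were higher and 1 lower.

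Along the genes, the members' ratio peaked upstream. In bins of 200 bp from the first coding probe, the median over member probes was 0.84 from -400 to -200 bp, with 58 probes. It was 0.77 in the bin from -600 to -400 bp and 0.73 from -800 to -600 bp. In the first 200 bp of coding probes it was 0.35, and in the next 200 bp 0.22. The values of other genes declined along the whole course, with 0.32 from -800 to -600 bp, 0.26 from -600 to -400 bp and 0.22 from -400 to -200 bp. They had 0.08 in the first 200 bp of coding probes, 0.00 in the next and -0.07 from 600 to 800 bp. The bin from 400 to 600 bp held 25 member probes with a median of 0.38, against -0.04 for other genes. The bins from -200 to 0 bp and from 600 to 800 bp hold only 12 member probes each.

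**Figure D3:**
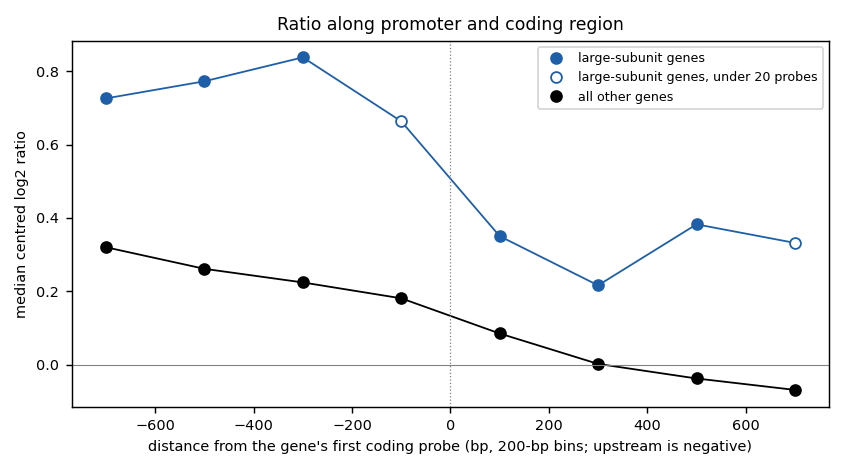
Median centred log2 ratio (Cy5 over Cy3, mean of 2 arrays) in 200-bp bins of distance from each gene's first coding probe, upstream negative, for large-subunit genes (blue, open where a bin has under 20 probes) and all other genes (black). The blue line is highest from -400 to -200 bp at 0.84 and lies above the black line in every bin.

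The channels show what the ratio is made of. Relative to the array median of each channel, the median Cy5 signal of member promoter probes was -0.14 in replicate 1 and -0.10 in replicate 2, and their median Cy3 signal was -0.84 and -0.85. For promoter probes of other genes the Cy5 medians were -0.05 and -0.06, and the Cy3 median was -0.35 on both arrays. Thus member promoters were dimmer than other promoters in both channels, and more so in the channel labelled WCE. Coding probes followed the same order: the Cy5 medians of members were -0.25 and -0.24, against 0.03 on both arrays for other genes, and their Cy3 medians were -0.58 and -0.60, against 0.12 on both arrays for other genes. Gene by gene, 71 of 80 member promoters were below the array median in Cy3, against 72.3% of other promoters, and 52 of 80 were below it in Cy5, against 57.5%. In coding regions 55 of 62 members were below it in Cy3, against 47.6% of other genes, and 45 of 62 in Cy5, against 56.5%. In RPL6B, the highest promoter, Cy5 stood at 0.10 and Cy3 at -1.54. How much the signal in either channel depends on base composition, fragmentation or amplification was not tested.

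**Figure D4:**
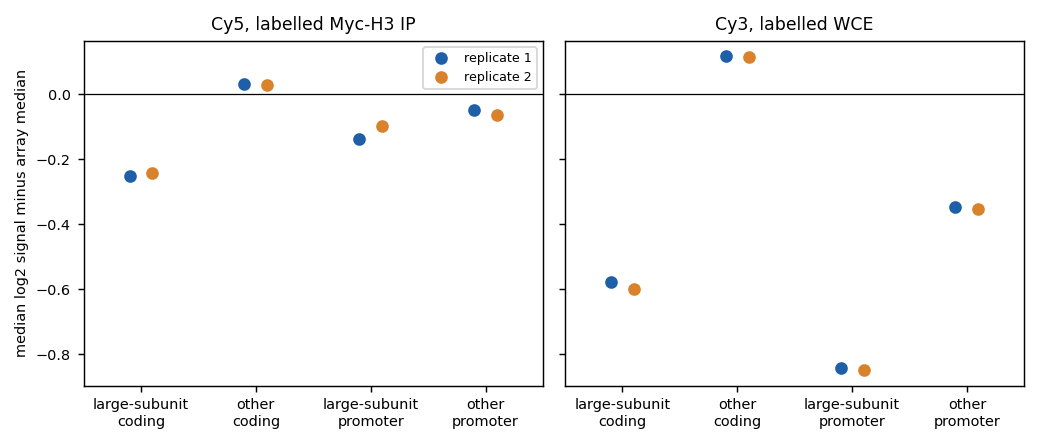
Median log2 signal of coding and promoter probes minus the array median, for the channel labelled Myc-H3 IP (Cy5, left) and the channel labelled WCE (Cy3, right), by array. Large-subunit promoters sit near -0.84 in Cy3 and between -0.14 and -0.10 in Cy5, and on both sides the large-subunit probes lie below the matching probes of other genes.

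The A and B paralogues were then compared within each array. As groups the copies were similar: coding medians were 0.35 for A copies and 0.27 for B copies, promoter medians were 0.76 and 0.71, and the single-copy genes had 0.30 and 0.78. Single pairs differed far more. In coding regions, 24 pairs had at least 2 probes in both copies, and the A copy was higher in 14, the B copy in 8, while 2 did not pass (limma on A minus B, adjusted over all 39 gene name pairs ending in A and B). Over all 39 such pairs, which include the members', the A copy was higher in 51.3% and the B copy in 35.9%. Among the 15 other pairs each copy was higher in 6. The median absolute difference was 0.20 for the members' pairs and 0.13 for the 15 other pairs. Paralogous coding sequences are close enough that a probe may bind both copies. Probe sequences were not used here, and the effect of such binding on these differences was not tested.

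The widest coding difference was in RPL36. RPL36A had 0.03 on both arrays and RPL36B 0.88 and 0.90, so A minus B was -0.86 ± 0.02 (SD, 2 arrays; limma adjusted p = 6.4e-05). RPL42A had -0.26 and -0.21 and RPL42B 0.24 and 0.30, a difference of -0.51. RPL43A had 0.07 and 0.14 and RPL43B 0.52 and 0.57, a difference of -0.44. In these pairs, picked for their wide differences, the A copy was the lower one on both arrays. In RPL21 and RPL17 the order was the other way. RPL21A had 0.33 and 0.41 and RPL21B -0.10 and -0.03, a difference of 0.44. RPL17A had 0.38 and 0.29 and RPL17B -0.07 and -0.05, a difference of 0.39, which changed to -0.16 and did not pass under normexp background correction. At the other extreme, RPL27A had 0.36 and 0.37 and RPL27B 0.29 and 0.31, a difference of 0.06. RPL14 (0.05 ± 0.03) and RPL16 (-0.00 ± 0.07) did not pass (limma adjusted p = 0.0589 and 0.928). RPL16 read -0.16 without saturated probes and 0.23 with the median of probes, both past the threshold, so the order of its copies is not settled. RPL27 was at -0.000103 without saturated probes. Under normexp background correction no coding pair and no promoter pair passed.

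Promoters of paralogues differed more widely. Of 34 pairs, the A copy was higher in 15, the B copy in 18 and 1 did not pass (limma, adjusted over 60 name pairs, of which 45% had a higher A copy and 46.7% a higher B copy). Among the 26 other pairs the A copy was higher in 12 and the B copy in 10. The median absolute difference was 0.40, against 0.35 for the other pairs, and 12 of the 34 differed by 0.5 or more. RPL42A had 0.30 and 0.34 and RPL42B 1.27 and 1.30, so A minus B was -0.96 ± 0.01 (SD, 2 arrays; limma adjusted p = 0.000872). RPL17A had 0.06 and 0.17 and RPL17B 0.98 and 1.04, a difference of -0.90 ± 0.04. RPL2A had 0.98 and 1.06 and RPL2B 0.10 and 0.16, a difference of 0.89 ± 0.01. RPL42, RPL17 and RPL2 thus hold differences of about the same size in opposite directions. RPL6A had 0.76 and 0.89 and RPL6B 1.65 and 1.71, a difference of -0.86 ± 0.05. RPL15A had 0.30 and 0.33 and RPL15B 1.12 and 1.19, a difference of -0.84 ± 0.03. These 5 pairs were picked for the widest differences, so the lack of overlap between their copies on the 2 arrays follows from the choice. The closest promoters were those of RPL41, with 0.86 and 0.94 in the A copy and 0.80 and 0.91 in the B copy, which did not pass (limma adjusted p = 0.0878). RPL36 came next, with 0.25 and 0.30 in the A copy and 0.20 and 0.25 in the B copy. RPL34 followed, with 0.91 and 0.94 in the A copy and 0.82 and 0.85 in the B copy.

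**Figure D5:**
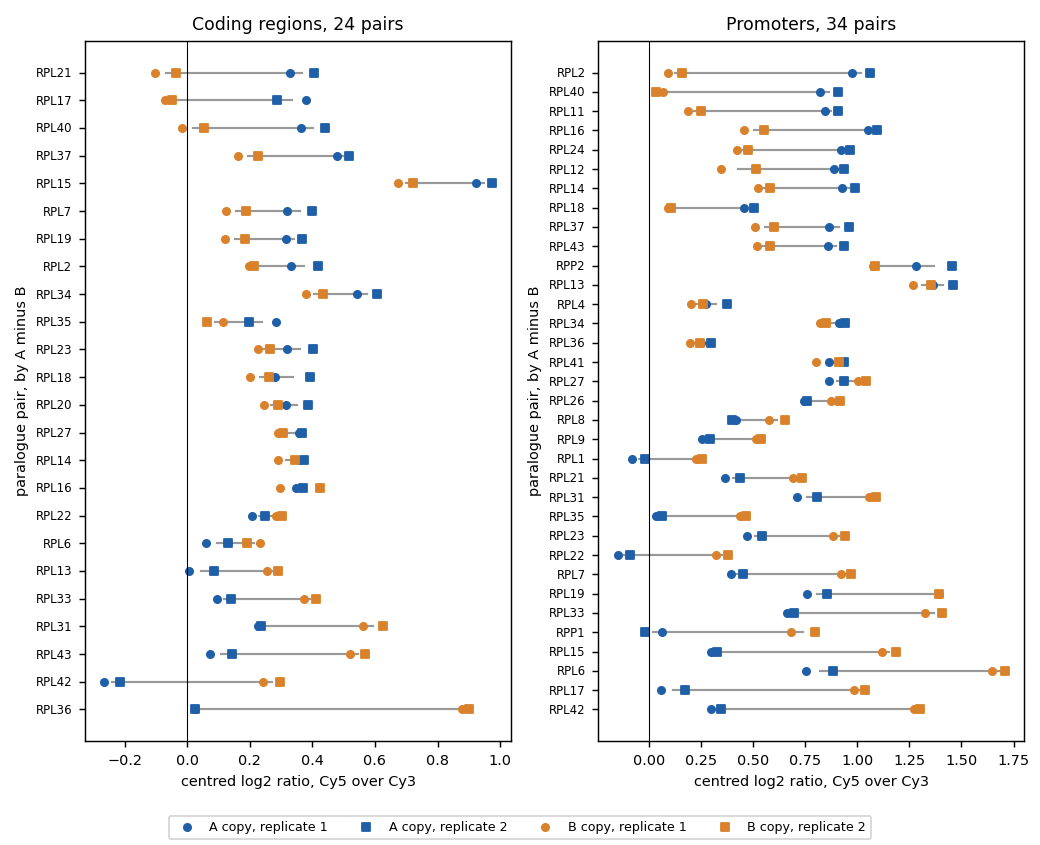
Centred log2 ratio (Cy5 over Cy3) of the A copy (blue) and the B copy (orange) of each paralogue pair on each array (circles for replicate 1, squares for replicate 2), for 24 coding regions (left) and 34 promoters (right), sorted by A minus B. RPL36 and RPL42 close the coding panel with differences of -0.86 and -0.51, and RPL2 at 0.89 and RPL42 at -0.96 open and close the promoter panel.

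The coding difference of a pair showed little relation to its promoter difference. Of 23 pairs measured in both regions, 11 had the same sign of A minus B in both. Of the 21 called in both, 10 had the same sign and 11 opposite signs, and the differences correlated with r = 0.08 across 23 pairs, a description across pairs of the same 2 arrays. The promoter difference was larger in 17 pairs and the coding difference in 6. RPL42 was lower in the A copy in both regions, whereas RPL17 and RPL21 were higher in the A copy in coding probes and lower in promoter probes. RPL36, with the widest coding difference, had nearly equal promoters. RPL15 had a higher coding region and a lower promoter in its A copy. Between copies, values were little related too: A against B gave r = -0.01 (rho = -0.20) over 24 coding regions and r = 0.20 (rho = 0.09) over 34 promoters. Divergent neighbours of some pairs are paralogues too, such as TOS4 beside RPL37A and PLM2 beside RPL37B. The RPL37 promoters read 0.87 and 0.96 in the A copy and 0.51 and 0.60 in the B copy.

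Other genes of ribosome biology were set beside the large-subunit genes. Small-subunit genes (RPS) were close to them: 35 of 39 coding regions were higher and 2 lower, with a median of 0.28, and 53 of 56 promoters were higher and none lower, with a median of 0.69. RPS4A had the highest coding value of that list, at 0.88 and 0.91, and RPS22B the lowest, at -0.70 and -0.58. Genes for the large subunit of the mitochondrial ribosome (MRPL), which are nuclear and regulated apart from the cytosolic set, had 13 of 24 coding regions higher and 7 lower with a median of 0.07. Of their promoters 24 of 31 were higher and 3 lower, with a median of 0.19. Factors that assemble and export the 60S subunit had 6 of 29 coding regions higher and 19 lower with a median of -0.11. Of their promoters 21 of 28 were higher and 4 lower, with a median of 0.15. Regulators of ribosomal protein or ribosome biogenesis genes had 3 of 12 coding regions higher and 8 lower with a median of -0.11. Of the regulator promoters 9 of 12 were higher and 1 lower, with a median of 0.23. HMO1 was their highest, at 0.42 and 0.50 in coding probes and 0.93 and 0.94 in the promoter, and SFP1 was their lowest coding region, at -0.47 and -0.41. The RAP1 promoter, at -0.11 and -0.04, was the 1 regulator promoter called lower. No test was made between lists. Over all genes the coding median was -0.04, with 34.9% higher and 49.1% lower, and the promoter median was 0.23, with 70.8% higher and 16.2% lower.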

How the data were processed

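DNA from a Myc-H3 precipitation and from whole-cell extract was amplified, and the labelled amplified RNA was co-hybridised on 2 arrays of 1 strain. The deposited scanner files give the intensity of each spot on design 014810 and, per the file headers, come from Agilent's Feature Extraction software, version 9.1.3.1, after background subtraction, detrending and linear dye normalisation. The authors' deposited value table holds the log2 ratio of the same processed Cy5 over Cy3 signals, equal to it within 5.00e-06, and was used as an alternative. Control spots (3444 an array) were left out, as were probes flagged as non-uniform or as outliers and probes whose Cy3 signal was not well above background, which kept 40890 of 41775 probes.

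The median log2 ratio of an array was subtracted from its probes, and no loess or quantile normalisation was applied. Coding values are means of 2 or more probes, promoter values of 1 or more. limma 3.58.1 in R 4.3.3 (lmFit, eBayes) tested each value against 0 over all genes, calling adjusted p-values (Benjamini-Hochberg) under 0.05. A minus B was fitted over every pair of names on the array that differ in a final A or B. The common SD was 0.03 for coding regions and 0.05 for promoters. Saturated spots were kept; they lie at 14 coding and 13 promoter probes of the members. The fits were tested on simulated data.

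The members, lists and roles were chosen with earlier results of these data known. The genes named with values are the 6 highest and 6 lowest coding regions and promoters, the 5 widest and 3 closest pairs in each region, the stalk, 5S, ubiquitin-fusion and RPL22 genes, and up to 2 extremes of each other list. RPL3, RPL10, RPL25, RPL39 and the RPL37 pair were added as examples of their roles or neighbours after their values were seen. Alternatives changed the input signals together with the background correction, and also centring, filters, averaging, probe minimum and promoter class. No sequences of probes, promoters or proteins were used here.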

Additional observations from a re-analysis of the deposited data

How the results depend on the processing

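The results depended most on replacing the processed signals by raw signals with normexp background correction. That change also left out the software's detrending and linear dye normalisation, and the effects of these steps were not told apart. With normexp (offset 50), and with normexp followed by loess, 0 members or pairs passed limma in either direction in any of the 5 comparisons. Over all genes, normexp left 8 coding regions higher and 2 lower, and 44 promoter-minus-coding differences higher and 1 lower. No promoter on the array passed, and with loess nothing on the array passed. Among members at an unadjusted p under 0.05, normexp left 24 coding regions, 42 promoters and 2 promoter-minus-coding differences higher, and 1 promoter pair in each direction. Normexp with loess left 19, 3 and 11 higher, 3 promoter-minus-coding differences lower and 2 coding pairs lower. The sign remained for 57 of 62 coding regions and 74 of 80 promoters under normexp, and for 60 and 77 with loess. Across member coding regions the arrays correlated with r = -0.27 under normexp and 0.97 with loess. The cause was not tested. Signs turned under normexp for the coding regions of RPL17B (0.18), RPL21B (0.049) and RPL42A (0.091), the RPL22A promoter (0.19) and the coding pairs RPL17 (-0.16) and RPL27 (-0.10). With loess they turned for the RPL17B coding region (0.033) and the RPL34 promoter pair (-0.011).

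The median of members minus that of other genes was 0.27 under normexp, 0.11 with loess, 0.34 without a filter, 0.37 without saturated probes and 0.34 with the median of probes in coding regions. In promoters it was 0.19 under normexp and 0.11 with loess. The mitochondrial minus nuclear difference was 0.90 under normexp, 0.64 with loess and 3.66 without saturated probes. Leaving out 1 array gave 0.34 to 0.35 for coding regions and 0.49 to 0.53 for promoters. Centring on the mode left 49 of 62 coding regions and 71 of 80 promoters higher, 1 coding region lower, and by limma 0 promoters lower (1 at an unadjusted p under 0.05). Over all genes, that centring left 993 of 4996 coding regions higher and 1691 lower, and 3041 of 5176 promoters higher and 626 lower. Without saturated probes the RPL27 coding pair was at -0.000103.

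With 1 coding probe more genes entered: 69 of 76 coding regions were higher and 4 lower, 53 of 75 promoter-minus-coding differences were higher and 15 lower, and among 32 pairs 18 had a higher A copy and 10 a higher B copy. Over all genes, 2040 of 5465 coding regions were higher and 2503 lower, and 3504 of 4989 differences were higher and 940 lower. Of all 55 name pairs, 28 had a higher A copy and 18 a higher B copy. Fewer genes entered under the remaining choices. With 3 coding probes, 30 of 34 coding regions were higher, 28 of 33 promoter-minus-coding differences were higher and 3 lower, and among 12 pairs 7 had a higher A copy and 4 a higher B copy. Over all genes, 1320 of 4282 coding regions were higher, and 2942 of 3931 differences were higher and 628 lower. Of all 19 name pairs, 8 had a higher A copy and 9 a higher B copy. With tandem promoters only, 35 of 39 promoters and 21 of 29 promoter-minus-coding differences were higher, and among 10 pairs 5 had a higher A copy and 4 a higher B copy. Over all genes, 1635 of 2566 promoters and 1504 of 2267 differences were higher. Of all 15 name pairs, 6 had a higher A copy and 7 a higher B copy. With probes of 60 bases only, chosen after seeing the data, 31 of 35 coding regions were higher, 2 of 75 promoters were lower, 26 of 30 promoter-minus-coding differences were higher and 2 lower, among 12 coding pairs 7 had a higher A copy and 5 a higher B copy, the RPL13A coding region was at -0.035, and the median differences were 0.32 in coding regions and 0.39 in promoters. Over all genes with these probes, 1268 of 4023 coding regions were higher and 827 of 4651 promoters lower. Of all 3335 differences 2439 were higher and 554 lower, and of all 20 coding name pairs 7 had a higher A copy and 11 a higher B copy. No paired analysis was possible because there is 1 group. With 2 arrays of 1 dye orientation, the spread covers these hybridisations only.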

Other observations

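Downstream of the members, in probes annotated between convergent genes, the median ratio was not raised. The 27 such probes had a median of -0.08 in replicate 1 and -0.03 in replicate 2, against -0.01 on both arrays for 1858 downstream probes of other genes. Single probes ran from -0.57 and -0.54 in RPL13A to 0.80 and 0.89 in RPP2A. As a set, the 27 probes were dim in both channels. Relative to the array median, their Cy5 medians were -0.79 and -0.83, against -0.26 and -0.28 for other genes, and their Cy3 medians were -0.62 and -0.64, against -0.27 and -0.26 for other genes.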
